A study of Mus musculus with 6 samples.

Results

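Heart muscle switches between fatty acids and glucose, and the genes described here are a small set that responds when fatty acids reach the nuclear receptor PPARalpha. The set was given as 9 gene symbols (Pdk4, Angptl4, Ucp2, Ucp3, Acot1, Acot2, Ppara, Ppargc1a and Plin5), and every probe set annotated with 1 of these symbols alone was taken. This found 18 probe sets for 8 genes, out of 18193 genes with such a probe set on the array. Ucp2 had none and is not analysed here. An additional probe set carries the symbols of both Acot2 and Acot1 and is given apart. Of the 18 probe sets, 17 reached the filter level, a signal of 50.2, and each of the 8 genes was tested at its main probe set, the one of highest mean signal over the 6 arrays.

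RNA came from hearts of male mice aged 2 months, with 2 Affymetrix arrays in each of 3 groups, all labelled with the strain background B6. RKIP-transgenic mice came from a line in which the alpha-MHC promoter, active in heart muscle cells, drives RKIP, a protein that binds the kinase RAF and receptor kinases. GRK-Inh-transgenic mice came from a line that expresses, in the myocardium, a peptide that inhibits G-protein-coupled receptor kinases (GRK), behind a promoter that the labels do not name. The controls were wild-type B6 mice. Each transgene is represented by 1 line, and the labels give neither the number of animals behind an array nor the feeding state or time of day, so the p-values cover no more than the spread among these arrays, which may be technical. Values are linear signals, scaled by the authors to the same trimmed mean on every array. Fold changes are on the log2(signal + 50) scale, which understates changes of dim genes, and a gene is said to have risen or fallen where its limma p, adjusted over 11254 genes, was under 0.05.

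Pebp1, the mouse gene of RKIP, did not differ between RKIP-transgenic and control hearts (log2 fold change 0.015 ± 0.041 SE, adjusted p = 0.866), which does not test a transgene that its probes may not match, so the groups are called by their labels. All 10 cardiomyocyte markers lay above the filter level. Their summed signal was 247200 to 247601 in RKIP-transgenic, 239529 to 241691 in GRK-Inh-transgenic and 247668 to 256286 in control hearts. Some of these probe sets, such as that of Myh6 (mean signal 37294), come close to the highest signals on the arrays (37546 to 41679). The response of probe sets at this brightness was not tested. The ratio of 3' to 5' actin control signal, a measure of RNA integrity, was 2.92 to 3.03 on the 4 transgenic arrays and 3.11 and 3.25 on the control arrays. Its part in the results was not tested.

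PPARalpha, encoded by Ppara, pairs with a retinoid X receptor on DNA, where fatty acids activate it and PGC-1alpha, encoded by Ppargc1a, serves as co-activator. Among the targets, PDK4 is a kinase that switches off pyruvate dehydrogenase and so spares glucose, and ANGPTL4 is a secreted inhibitor of lipoprotein lipase, the enzyme that frees fatty acids from circulating fat. UCP3 is a carrier of the inner mitochondrial membrane, ACOT1 and ACOT2 are thioesterases that split acyl-CoA in the cytosol and in mitochondria, and perilipin 5 (Plin5) coats lipid droplets in oxidative tissue. Most of these genes are known to rise in heart during fasting.

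In the RKIP-transgenic hearts Pdk4, Angptl4 and Ucp3 fell, Ppara and Ppargc1a rose, and Acot1, Acot2 and Plin5 did not pass. In the GRK-Inh-transgenic hearts Angptl4 and Ucp3 also fell, whereas Pdk4, Acot1, Acot2, Ppara and Ppargc1a rose and Plin5 did not pass. In RKIP-transgenic hearts 5 of 8 genes were called, 2 higher and 3 lower, where 10.8% of all genes tested were called, 5.32% as higher and 5.52% as lower. In GRK-Inh-transgenic hearts 7 of 8 were called, 5 higher and 2 lower, against 13.1% of all genes, 5.85% higher and 7.25% lower. With 2 arrays a group, groups that do not overlap are common. In RKIP-transgenic against control hearts 7 of 8 did not overlap, against 53.4% of all genes tested (24.2% higher, 29.2% lower), and in GRK-Inh-transgenic hearts 8 of 8, against 56.9% (23.7% higher, 33.2% lower). Both comparisons use the same 2 control arrays. The median log2 fold change over the 8 genes was 0.014 in RKIP-transgenic and 0.35 in GRK-Inh-transgenic hearts, against -0.017 and -0.031 over all genes tested.

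**Figure D1:**
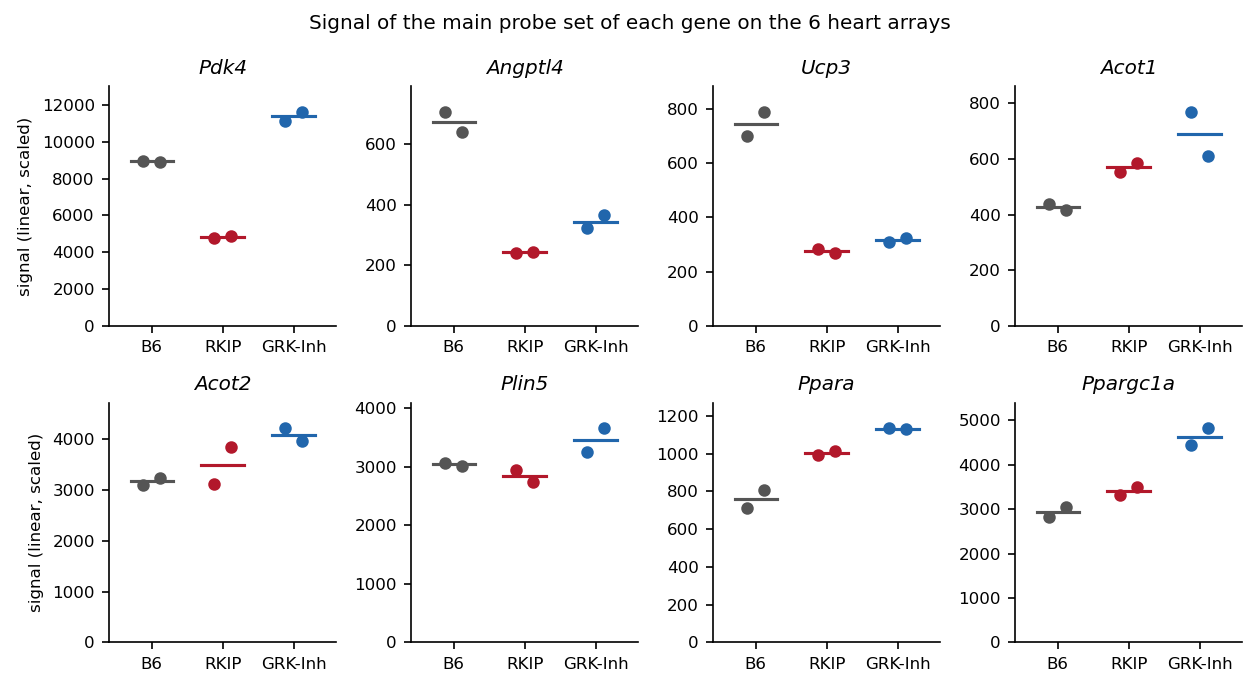
Linear scaled signal of the main probe set of 8 genes (vertical axes, each from 0) on the 2 arrays of B6 control, RKIP-transgenic and GRK-Inh-transgenic hearts; points are arrays and lines are group means. Angptl4 and Ucp3 lie below both control arrays in both lines, Pdk4 lies below them in RKIP-transgenic and above them in GRK-Inh-transgenic hearts, and for all 8 genes the RKIP-transgenic arrays lie below the GRK-Inh-transgenic ones.

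The promoters of a gene that fell in both lines (Ucp3), of the gene that moved in opposite directions (Pdk4) and of the co-activator gene (Ppargc1a) are shown for comparison, as the 250 bases before the transcription start in the RefSeq table of build GRCm38.p6. That table held 8 of the 9 genes, all but Angptl4. Capitals mark the nuclear receptor hexamer AGGTCA, searched on both strands. The windows are chr6:5496279-5496528 on the minus strand for Pdk4, chr7:100472741-100472990 on the plus strand for Ucp3 and chr5:51567726-51567975 on the minus strand for Ppargc1a.
Pdk4: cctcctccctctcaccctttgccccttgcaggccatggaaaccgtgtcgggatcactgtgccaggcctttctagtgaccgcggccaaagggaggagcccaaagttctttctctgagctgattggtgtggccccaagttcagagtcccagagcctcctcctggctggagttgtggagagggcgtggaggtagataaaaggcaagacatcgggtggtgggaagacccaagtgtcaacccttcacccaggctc
Ucp3: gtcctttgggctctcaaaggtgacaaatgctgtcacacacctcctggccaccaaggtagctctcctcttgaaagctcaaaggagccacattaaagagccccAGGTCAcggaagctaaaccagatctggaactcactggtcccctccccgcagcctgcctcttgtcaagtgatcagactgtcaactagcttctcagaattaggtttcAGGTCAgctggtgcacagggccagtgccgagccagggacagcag
Ppargc1a: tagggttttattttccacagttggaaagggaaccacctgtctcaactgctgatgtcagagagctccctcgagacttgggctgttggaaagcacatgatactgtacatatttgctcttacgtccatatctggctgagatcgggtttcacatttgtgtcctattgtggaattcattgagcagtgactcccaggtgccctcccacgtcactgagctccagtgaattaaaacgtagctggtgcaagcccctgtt
The Ucp3 window holds AGGTCA at 2 places, whose first bases lie 149 and 44 bases before the start, and a Plin5 window holds it once, 170 bases before. The other 6 genes have no match in these windows, and 14% of all 32851 windows of this length hold at least 1. The full site of PPAR with its RXR partner, in which that hexamer is repeated after 1 base, is in 0.0335% of all windows and in none of these genes. The same holds for TCAAGGTCA, the site of the estrogen-related receptors (0.387% of windows), TGACGTCA, that of CREB (1.55%), and GTAAACA, that of FOXO factors (3.17%), each searched on both strands. The first of these contains AGGTCA. A match is a description of the letters, and its absence shows nothing about a factor.

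Pdk4 was the brightest of these probe sets and separated all 3 groups. Its signals were 4749 and 4863 in RKIP-transgenic, 11115 and 11626 in GRK-Inh-transgenic and 8971 and 8888 in control hearts. The RKIP-transgenic arrays were thus at 53.8% of the control mean and the GRK-Inh-transgenic arrays at 127%, with no overlap. Pdk4 fell in RKIP-transgenic hearts by 0.89 on the log2 scale (SE 0.041, adjusted p = 4.9e-07) and rose in GRK-Inh-transgenic hearts (0.35 ± 0.041, adjusted p = 0.000267). The direct difference between the lines was -1.23 ± 0.041 (adjusted p = 3.1e-08), and only 19 of the 11254 genes were further below GRK-Inh-transgenic hearts. All 18 alternatives of processing kept these 3 calls.

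The genes around this kinase in the control of pyruvate dehydrogenase were counted from a fixed list of 13, of which 11 were tested. In each line 1 rose and 3 fell, where 10.8% of all genes tested were called in RKIP-transgenic and 13.1% in GRK-Inh-transgenic hearts. Pdk1, another kinase of the complex, was the one that rose in both, by 0.27 ± 0.056 (adjusted p = 0.0121) and 0.32 ± 0.056 (adjusted p = 0.00361). Pdp2, a phosphatase that reactivates the complex, had signals of 324 and 316 in RKIP-transgenic, 317 and 333 in GRK-Inh-transgenic and 520.5 and 461 in control hearts. It was lower in both lines, by 0.54 ± 0.10 (adjusted p = 0.00671) and 0.53 ± 0.10 (adjusted p = 0.006). The phosphatase gene Pdp1 differed between the lines (0.47 ± 0.066 higher in RKIP-transgenic hearts, adjusted p = 0.00154), since it fell in GRK-Inh-transgenic hearts by 0.40 and had 0.064 ± 0.066 against control in the other line (adjusted p = 0.602). Pdk2 had 0.28 ± 0.11 in RKIP-transgenic hearts (adjusted p = 0.139), and Pdk3, at 27.1 to 74.6, was below the filter. Of the subunits, Pdhb fell in both lines (by 0.13 and 0.18) and Dlat in RKIP-transgenic hearts (by 0.26). Calls were lost with 1 array left out for Pdk1 in RKIP-transgenic hearts (adjusted p up to 0.0724, without B6 array 2), for Pdp2 without B6 array 1 (0.0661 and 0.061) and for Pdhb (up to 0.147 without RKIP array 1, and 0.0727 without GRK-Inh array 1).

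Angptl4 was among the genes that fell most in RKIP-transgenic hearts, where 6 of 11254 genes had a larger fall. Its signals were 240.3 and 245 in RKIP-transgenic, 321 and 367 in GRK-Inh-transgenic and 706 and 638 in control hearts. The groups did not overlap, and the 4 transgenic arrays all lay below both controls. The level was 36.1% of control in RKIP-transgenic hearts (log2 fold change -1.30 ± 0.10, adjusted p = 2.6e-05) and 51.2% in GRK-Inh-transgenic hearts (-0.87 ± 0.10, adjusted p = 0.000304). Between the lines the difference was -0.43 ± 0.10 (adjusted p = 0.0301). Without RKIP array 1 or 2, or GRK-Inh array 1 or 2, the difference was -0.42, -0.44, -0.51 and -0.34, with adjusted p of 0.111, 0.0899, 0.0505 and 0.175. In such fits the array left alone in its group is assumed to vary like the other groups. With all arrays kept, the call was also lost without a filter (adjusted p = 0.0657), with no variance trend (0.0803) and with the arrays of these 2 groups only (0.0554). The second Angptl4 probe set gave 1.0 to 17.9 on the 6 arrays, below the filter level.

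Lipoprotein lipase, which ANGPTL4 inhibits, had no detected change: Lpl gave 0.0069 ± 0.033 in RKIP-transgenic (adjusted p = 0.927) and -0.072 ± 0.033 in GRK-Inh-transgenic hearts (adjusted p = 0.176). Its signals of 31029 to 33780 come close to the highest on the arrays (37546 to 41679), and the response of probe sets at this brightness was not tested. Of the fixed list of 16 angiopoietin-like and lipase genes 9 were tested, and 0 rose and 1 fell in RKIP-transgenic hearts. In GRK-Inh-transgenic hearts 1 rose and 1 fell. The shares of all genes called in the lines were 10.8% and 13.1%. At an unadjusted limma p under 0.05, 1 of the 9 passed in RKIP-transgenic and 7 in GRK-Inh-transgenic hearts. The share of all genes at that unadjusted level is not given here. Apoe, the gene of a lipoprotein ligand, fell in both (by 0.20 and 0.45). Gpihbp1, the endothelial anchor of the lipase, rose in GRK-Inh-transgenic hearts (0.27 ± 0.068, adjusted p = 0.0236) and had -0.038 ± 0.068 in RKIP-transgenic hearts (adjusted p = 0.789). The difference between the lines passed for Gpihbp1 (-0.31 ± 0.068, adjusted p = 0.0185). With 1 array left out the adjusted p reached 0.171 for Apoe in RKIP-transgenic hearts (without RKIP array 2), and for Gpihbp1 0.15 against control (without B6 array 2) and 0.125 between the lines (without RKIP array 2).

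Ucp3 fell in both lines. Its main probe set gave 282 and 267 in RKIP-transgenic, 309.7 and 322 in GRK-Inh-transgenic and 699 and 789 in control hearts. These are 36.9% and 42.4% of the control mean, with no overlap between controls and transgenic arrays. The log2 fold changes were -1.29 ± 0.10 (adjusted p = 2e-05) and -1.12 ± 0.10 (adjusted p = 4.4e-05). The lines were 0.17 ± 0.10 apart on the log2 scale (RKIP-transgenic lower), which did not pass (adjusted p = 0.335). The second probe set gave 79.9 and 28.0, 119 and 116, and 249 and 264 in the same order of groups, and fell in both lines too (-1.61 ± 0.21 and -0.87 ± 0.21). The falls of Pdk4 in the RKIP-transgenic line and of Angptl4 and Ucp3 in both lines passed under all 18 alternatives.

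Related inner membrane carriers were counted from a fixed list of 6, of which 5 were tested. By limma 0 of 5 were called in either line, near the shares of all genes tested (10.8% and 13.1%). At an unadjusted p under 0.05, 0 passed in RKIP-transgenic and 0 in GRK-Inh-transgenic hearts. Slc25a14 and Slc25a27, with mean signals of 65.0 and 68.0, lay near the filter level and had SEs of 0.20. Slc25a4, the heart's adenine nucleotide carrier, had 0.0021 ± 0.032 and -0.056 ± 0.032 (adjusted p = 0.982 and 0.286). Ucp1, the defining gene of brown fat, gave 3.92 to 37.2, and the fast skeletal myosin genes Myh1, Myh2 and Myh4 gave at most 42.1, all below the filter. Of all 7 brown adipocyte markers 5 were tested, with Cidea higher and Ppargc1b lower in RKIP-transgenic and Ppargc1b lower in GRK-Inh-transgenic hearts, and of 10 skeletal muscle markers 2 were tested and 0 called in either line (by limma, 0 and 1 at an unadjusted p under 0.05). Cidea, Dio2, Cox8b and Cox7a1 of the first list and Tnni2 (69.5 to 126) and Mylpf (48.5 to 117) of the second were above the filter, and the part of such tissue in the Ucp3 values was not tested.

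**Figure D2:**
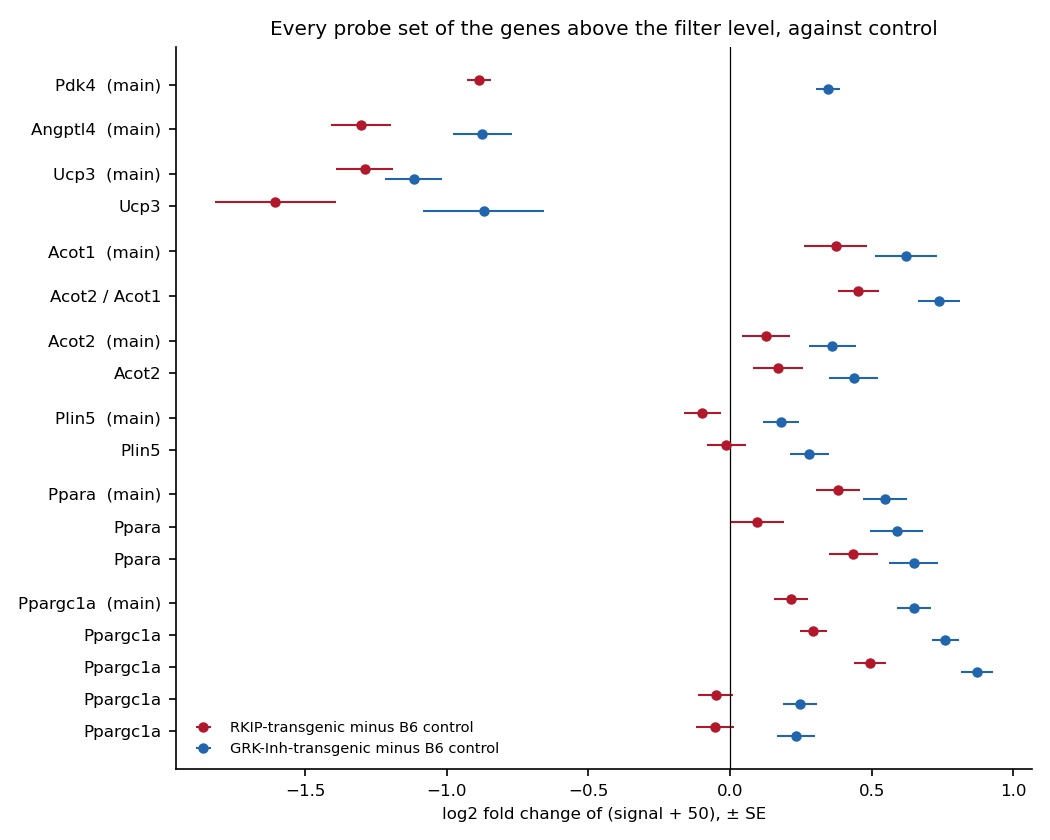
Log2 fold change of (signal + 50) against B6 control (horizontal axis, bars ± SE of the limma fit over all probe sets) for each probe set above the filter level, by gene; red is RKIP-transgenic and blue GRK-Inh-transgenic. All probe sets of Angptl4 and Ucp3 lie left of 0 in both lines, Pdk4 lies on both sides, and in every row the red point lies left of the blue one.

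The thioesterase genes were higher in GRK-Inh-transgenic hearts. Acot1 gave 553 and 587 in RKIP-transgenic, 770.1 and 611 in GRK-Inh-transgenic and 439.7 and 418 in control hearts. All transgenic arrays lay above both controls, and the 2 GRK-Inh-transgenic arrays differed from each other by more than the RKIP-transgenic ones did. Acot1 rose in GRK-Inh-transgenic hearts (0.62 ± 0.11, adjusted p = 0.00328) and had 0.37 ± 0.11 in RKIP-transgenic hearts (adjusted p = 0.0517). That value sat at the threshold: its adjusted p was 0.0276 to 0.209 over the alternatives and 0.0298 and 0.0276 without GRK-Inh array 1 or 2, which enter only the estimate of the spread.

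Acot2 rose in GRK-Inh-transgenic hearts, with main signals of 4215 and 3958 against 3102 and 3239 in controls (0.36 ± 0.082, adjusted p = 0.0145). The call was lost without GRK-Inh array 1 (adjusted p = 0.0953), B6 array 1 (0.107) or B6 array 2 (0.064). The RKIP-transgenic arrays, at 3122 and 3843, spread over the controls' range and beyond it (0.13 ± 0.082, adjusted p = 0.38). Without RKIP array 1 this value was 0.27 (adjusted p = 0.0341) and without RKIP array 2 it was -0.021. The second Acot2 probe set gave 491 and 470.1, 596 and 580.2, and 416 and 427, with log2 fold changes of 0.17 ± 0.087 and 0.44 ± 0.087. Acot1 and Acot2 are near-identical neighbours, so a signal of either may hold RNA of the other. The probe set annotated with both gave 885 and 855 in RKIP-transgenic, 1074 and 1069 in GRK-Inh-transgenic and 607 and 638 in control hearts, and passed in both lines (0.45 ± 0.073 and 0.74 ± 0.073). Of the 11 other thioesterase genes fixed as a list 7 were tested. By limma 0 were called in RKIP-transgenic hearts (2 at an unadjusted p under 0.05), where 10.8% of all genes were. In GRK-Inh-transgenic hearts 1, Acot13, was lower (by 0.16), where 13.1% of all genes were called. That call was lost without GRK-Inh array 2.

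Plin5 did not pass against control at its main probe set in either line. Its signals were 2939.8 and 2739 in RKIP-transgenic, 3256 and 3660.2 in GRK-Inh-transgenic and 3059.6 and 3021 in control hearts. Against control it had -0.098 ± 0.063 (adjusted p = 0.377) and 0.18 ± 0.063 (adjusted p = 0.0865). The second value passed with the arrays shifted to one median (0.23, adjusted p = 0.0361), without GRK-Inh array 1 (0.26, adjusted p = 0.0423) and with the mean of both probe sets (0.23, adjusted p = 0.0121), and was 0.097 without GRK-Inh array 2 (adjusted p = 0.455). The second probe set gave 1156 and 1168, 1498 and 1375, and 1191.5 and 1155 in the same order of groups, and passed as higher in GRK-Inh-transgenic hearts (0.28 ± 0.068, adjusted p = 0.0271) but not in RKIP-transgenic hearts (-0.013 ± 0.068, adjusted p = 0.942). Between the lines Plin5 was lower in RKIP-transgenic hearts (-0.28 ± 0.063, adjusted p = 0.0213), a call lost without RKIP array 2 (adjusted p = 0.126) or GRK-Inh array 2 (0.156).

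Other proteins of the droplet surface and its lipases were counted as a group. Of 16 tested genes from a fixed list of 18 perilipins and droplet lipases, 3 rose and 1 fell in RKIP-transgenic hearts. In GRK-Inh-transgenic hearts 4 rose and 0 fell. The shares of all genes called were 10.8% and 13.1%. Plin3, a perilipin found in most tissues, rose in both (0.80 ± 0.065, adjusted p = 3e-05, and 0.46 ± 0.065, adjusted p = 0.00101). Pnpla2, the gene of adipose triglyceride lipase, rose in RKIP-transgenic hearts (0.48 ± 0.056, adjusted p = 0.000374). Mgll, which encodes the last lipase of the sequence, had signals of 1672 and 1710.1 in RKIP-transgenic, 2727 and 2779 in GRK-Inh-transgenic and 2338 and 2263 in control hearts. It fell in the first line (by 0.43) and rose in the second (0.25 ± 0.053), with a difference of -0.69 ± 0.053 between them (adjusted p = 2.1e-05). The rise was lost without GRK-Inh array 2 (adjusted p = 0.067) or B6 array 2 (0.0602). Plin4 rose in GRK-Inh-transgenic hearts (0.37 ± 0.067, adjusted p = 0.00388), as did G0s2, an inhibitor of Pnpla2's product (0.28 ± 0.048, adjusted p = 0.00342). Plin2, a PPAR target, had -0.41 ± 0.12 in RKIP-transgenic hearts (adjusted p = 0.0549) and -0.14 ± 0.12 in GRK-Inh-transgenic hearts (adjusted p = 0.508).

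Ppara, the receptor gene, was higher in both lines. Its main probe set gave 992 and 1013 in RKIP-transgenic, 1134 and 1128 in GRK-Inh-transgenic and 711 and 808 in control hearts, with no overlap. The level was 132% of control (log2 fold change 0.38 ± 0.077, adjusted p = 0.0101) and 149% (0.55 ± 0.077, adjusted p = 0.000878). In RKIP-transgenic hearts the call was lost without RKIP array 2 (0.37, adjusted p = 0.0542) or B6 array 1 (0.30, adjusted p = 0.0744) and when the variance was fitted with no trend (adjusted p = 0.0794). Its 3 probe sets did not give one size: against control they had 0.38, 0.096 and 0.43 in RKIP-transgenic hearts and 0.55, 0.59 and 0.65 in GRK-Inh-transgenic hearts. The difference between the lines did not pass at the main probe set (-0.17 ± 0.077, adjusted p = 0.226), but passed at the second (-0.49 ± 0.094, adjusted p = 0.0129) and with the mean of the 3 probe sets (-0.29, adjusted p = 0.0321).

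Ppargc1a, the co-activator gene, was further above control in GRK-Inh-transgenic than in RKIP-transgenic mice. The main probe set gave 3320.0 and 3508 in RKIP-transgenic, 4448 and 4822 in GRK-Inh-transgenic and 2820.4 and 3052 in control hearts. GRK-Inh-transgenic arrays stood at 158% of control (0.65 ± 0.059, adjusted p = 4.9e-05), and the lines differed (-0.44 ± 0.059, adjusted p = 0.00122). The rise in RKIP-transgenic hearts to 116% (0.21 ± 0.059, adjusted p = 0.0426) was lost under 8 of 18 alternatives. Leaving out RKIP array 1, RKIP array 2, B6 array 1 or B6 array 2 gave adjusted p of 0.0699, 0.198, 0.223 and 0.0572. Of the 5 probe sets in that comparison, 3 had values of 0.21, 0.29 and 0.49, and the other 2, designed on one sequence, had -0.051 and -0.054. In GRK-Inh-transgenic hearts all 5 were higher, from 0.23 to 0.87, and 4 of them passed. Which transcript forms these probe sets read is not given in the sources used here.

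Partners of the receptor were counted from a list of 30 receptor and co-regulator genes, of which 28 were tested. In RKIP-transgenic hearts 4 rose and 1 fell, where 5.32% of all genes tested were called higher and 5.52% lower. In GRK-Inh-transgenic hearts 4 rose and 2 fell, against 5.85% and 7.25%. Ppargc1b, the gene of the related co-activator PGC-1beta, went the other way from Ppargc1a. Its signals were 1791 and 1777 in RKIP-transgenic, 2303 and 2225 in GRK-Inh-transgenic and 2980 and 2888 in control hearts (-0.70 ± 0.053, adjusted p = 1.6e-05, and -0.37 ± 0.053, adjusted p = 0.00104). Perm1, a muscle gene regulated by PGC-1, rose in both lines (0.51 ± 0.075, adjusted p = 0.00162, and 0.54 ± 0.075, adjusted p = 0.000844). Lpin1, a phosphatidate phosphatase that also acts with PGC-1alpha, rose too (0.25 ± 0.046 and 0.45 ± 0.046). Esrrg, an estrogen-related receptor gene, rose by 0.31 ± 0.066 and 0.23 ± 0.066 (adjusted p = 0.0135 and 0.0459), whereas Esrra did not pass (-0.042 and -0.065). Of the receptors, Ppard gave 0.20 ± 0.20 and 0.044 ± 0.20, Pparg -0.20 ± 0.15 and 0.25 ± 0.15, and Rxra 0.041 and 0.058, none of which passed. Rxrg rose in GRK-Inh-transgenic hearts (0.35 ± 0.095, adjusted p = 0.0347). Without B6 array 2 the adjusted p was 0.0953 and 0.212 for Esrrg in the lines and 0.141 for Rxrg.

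All 8 genes were lower on both RKIP-transgenic arrays than on both GRK-Inh-transgenic arrays. Among all genes tested 52.9% did not overlap, 23.2% lower and 29.7% higher. Of the 8, 4 passed, against 8.84% of all genes. They were lower in RKIP-transgenic hearts (Pdk4, Angptl4, Ppargc1a and Plin5) and 0 were called higher, where 4.37% and 4.47% of all genes were. The median difference was -0.26 over the 8 genes and 0.021 over all genes. Tested one by one, 10 of the 17 probe sets passed as lower and 0 as higher, against 3.07% and 2.67% of 22519 probe sets. Against control, 4 probe sets passed as higher and 4 as lower in RKIP-transgenic hearts, where 3.96% and 3.63% of all probe sets did, and 12 and 3 in GRK-Inh-transgenic hearts, where 4.94% and 5.38% did. Several probe sets share a gene and are not independent.

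**Figure D3:**
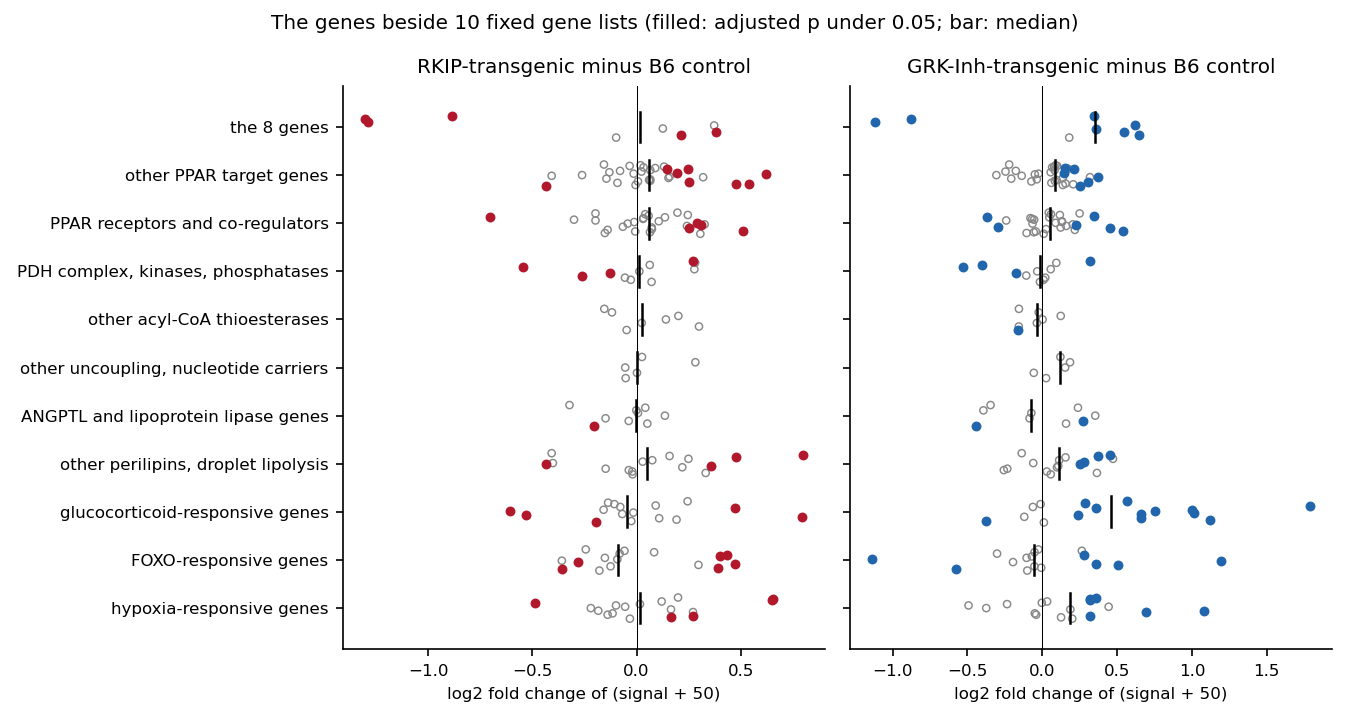
Log2 fold change of (signal + 50) against B6 control (horizontal axes) for the 8 genes and for each tested gene of 10 fixed lists (rows), in RKIP-transgenic (left, red) and GRK-Inh-transgenic hearts (right, blue). Filled points have an adjusted p under 0.05, open points do not, and black bars are list medians; the 8 genes spread from -1.30 to 0.38 and from -1.12 to 0.65, and the median of the other PPAR targets is 0.06 and 0.084.

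Other PPAR targets are known for fatty acid uptake and oxidation. A fixed list of 40 gave 31 tested genes, of which 7 rose and 1 fell in RKIP-transgenic hearts (median log2 fold change 0.06) and 6 rose and 0 fell in GRK-Inh-transgenic hearts (median 0.084). The range was -0.43 to 0.62 and -0.31 to 0.37. Over all genes tested, 10.8% and 13.1% were called. Slc27a1, a fatty acid transporter gene, passed in RKIP-transgenic hearts (0.62 ± 0.16, adjusted p = 0.0318), with signals of 564 and 367 against 279 and 281 in controls. Without RKIP array 1 the Slc27a1 value was 0.34 (adjusted p = 0.204). Retsat, a retinol saturase gene, rose in the same hearts (0.54 ± 0.092, adjusted p = 0.0041). Vldlr, a receptor for triglyceride-rich particles, rose in both lines (0.25 ± 0.037 and 0.31 ± 0.037). Cd36, which brings fatty acids into the cell, rose slightly in both (0.20 ± 0.039, adjusted p = 0.00912, and 0.15 ± 0.039, adjusted p = 0.0289), calls lost without B6 array 1 (adjusted p = 0.0613 and 0.147). Acadm, a dehydrogenase of beta-oxidation, and Fabp3, the heart's fatty acid binding protein, did not pass in either line (0.13 and 0.080, and -0.014 and -0.025). Cpt1b had no probe set with a single symbol and is not analysed here. Of this list, 4 genes are also counted with the droplet genes and 1 with the lipase genes.

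Genes of 3 other signals known to act on Pdk4 or Angptl4 were counted as well. Beside these counts, 10.8% of all genes tested were called in RKIP-transgenic and 13.1% in GRK-Inh-transgenic hearts. Of 16 glucocorticoid-responsive genes, 2 rose and 3 fell in RKIP-transgenic hearts (median -0.047), and 11 rose and 1 fell in GRK-Inh-transgenic hearts (median 0.46). Zbtb16, a transcription factor gene, gave 727 and 674 in RKIP-transgenic, 2380.3 and 2388 in GRK-Inh-transgenic and 566 and 754 in control hearts, and Fkbp5, a chaperone of the glucocorticoid receptor, rose in GRK-Inh-transgenic hearts by 0.56 ± 0.11 (adjusted p = 0.00778). Between the lines 2 of these 16 were higher and 10 lower in RKIP-transgenic hearts (median -0.48), where 4.47% and 4.37% of all genes were. Several genes of that list, such as Dusp1, also answer to other stimuli. Of 16 FOXO-responsive genes, 4 rose and 2 fell in each line, and Klf15, counted in both lists, rose in both lines (0.47 ± 0.094 and 0.36 ± 0.094). Of 17 hypoxia-responsive genes, 4 rose and 1 fell in RKIP-transgenic and 6 rose and 0 fell in GRK-Inh-transgenic hearts, with Bnip3, a mitophagy gene, higher in both (0.65 ± 0.040 and 0.32 ± 0.040). P4ha1 rose in GRK-Inh-transgenic hearts (1.08 ± 0.099) and did not pass in RKIP-transgenic hearts (-0.18 ± 0.099). Egln3 fell in RKIP-transgenic hearts (-0.49 ± 0.086) and did not pass in the other line (-0.0026 ± 0.086). Without B6 array 1 the adjusted p was 0.0569 for Fkbp5 and, in the lines, 0.0725 and 0.175 for Klf15. The part of these signals in the values of Pdk4 and Angptl4 was not tested.

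**Figure D4:**
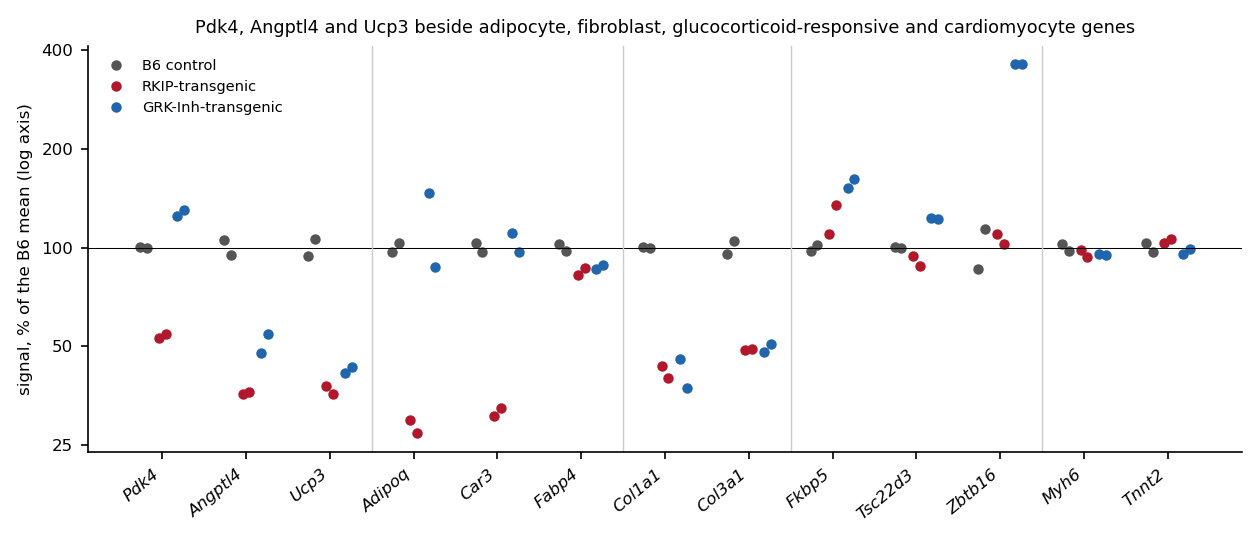
Signal of each array as a percentage of the mean of the 2 B6 control arrays (log axis) for Pdk4, Angptl4 and Ucp3 and for genes of white adipocytes (Adipoq, Car3, Fabp4), fibroblasts (Col1a1, Col3a1), the glucocorticoid response (Fkbp5, Tsc22d3, Zbtb16) and cardiomyocytes (Myh6, Tnnt2); points are arrays. Adipoq and Car3 are low on the RKIP-transgenic arrays only, the collagen genes are low in both lines, and Zbtb16 is high in GRK-Inh-transgenic hearts. The genes shown were picked from longer lists. Of 16 glucocorticoid-responsive genes 11 rose, 1 fell and 4 were not called in GRK-Inh-transgenic hearts.

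Markers of other cell types moved beside these genes, and in bulk tissue fewer cells of a type and less RNA per cell cannot be told apart. Of 8 white adipocyte markers 4 were tested, and 3 of them fell in RKIP-transgenic and 1, Fabp4, in GRK-Inh-transgenic hearts. Among all genes tested 5.52% and 7.25% fell. Adipoq gave 88.8 and 80.8 in RKIP-transgenic, 434 and 259.8 in GRK-Inh-transgenic and 288 and 307 in control hearts. Adipocytes express Angptl4. In GRK-Inh-transgenic hearts Adipoq had 0.16 ± 0.18 (adjusted p = 0.626), Car3 0.051 ± 0.070 (adjusted p = 0.683) and Fabp4 -0.20 ± 0.039 (adjusted p = 0.00615). The summed signal of the 6 adipocyte markers with a probe set was 19479 to 20443 in RKIP-transgenic, 23137 to 23226 in GRK-Inh-transgenic and 25224 to 26512 in control hearts, most of it from Fabp4, which endothelium also expresses. Lep, the leptin gene, was below the filter level (at most 19.9). The part of adipocytes in the lower Pdk4 of RKIP-transgenic hearts and the lower Angptl4 of both lines was not tested.

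Fibroblast markers were lower in both lines, as Angptl4 and Ucp3 were. Of 12 such markers, 0 rose and 8 fell in RKIP-transgenic and 0 rose and 10 fell in GRK-Inh-transgenic hearts, and their summed signal was 61124 to 66390 on the transgenic and 81793 to 83344 on the control arrays. The falls were uneven, from -0.097 to -1.12 in RKIP-transgenic and from -0.17 to -1.13 in GRK-Inh-transgenic hearts. On the transgenic arrays the collagen gene Col3a1 was at 48.2% to 50.7% of the control mean, and Dcn, which was brighter, at 88.1% to 94.4%. Endothelial markers summed to 7204 to 7272 in RKIP-transgenic, 7903 to 8031 in GRK-Inh-transgenic and 8260 to 8352 in control hearts, with 2 of 10 lower in each line. Of 12 smooth muscle and pericyte markers, 1 rose and 6 fell in RKIP-transgenic and 0 rose and 5 fell in GRK-Inh-transgenic hearts. Of 12 tested macrophage markers 1 and 3 fell, and of 6 atrial markers 3 and 1 fell, with Bmp10 lower in both lines (log2 fold change -0.85 and -1.43). Lymphocyte markers were below the filter level except Ighm, Jchain and Ms4a1, and Ighm and Jchain rose in GRK-Inh-transgenic hearts (2.01 and 1.30), while Ighm fell in RKIP-transgenic hearts (-0.51). Of the cardiomyocyte markers 1 of 10, Actc1, fell in RKIP-transgenic hearts (by 0.12) and 0 were called by limma in GRK-Inh-transgenic hearts (3 at an unadjusted p under 0.05). No erythroid marker passed the filter. Beside these marker counts, 10.8% of all genes tested were called in RKIP-transgenic and 13.1% in GRK-Inh-transgenic hearts. Without B6 array 1 the calls of Actc1, Bmp10 and Ighm in RKIP-transgenic hearts (adjusted p = 0.128, 0.0662 and 0.119) and of Fabp4 in GRK-Inh-transgenic hearts (0.0505) were lost. The part of cell content in the 8 genes' values was not tested.

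The genes whose profiles were most like each of the 8 were found by the smallest root mean square difference of mean-centred log2 values over the 6 arrays, among 11253 other genes. For Pdk4 these were Serpinh1, the collagen chaperone gene (difference 0.048), and 1810064F22Rik (0.12). Eln, the elastin gene, and Kcne1, a potassium channel subunit gene, were nearest to Angptl4 (0.097 and 0.15), and Nrep and the collagen gene Col3a1 to Ucp3 (0.10 and 0.11). For Acot1 they were Stk40 and Sync, for Acot2 1110002L01Rik and Hspb3, for Ppara Tmem229a and Pik3r1, for Ppargc1a Mtr and Prdm16os, and for Plin5 Rbmxl1 and Ptgr2, at differences of 0.035 to 0.065. These are nearest profiles over 6 arrays in 3 groups only. Tmem229a and Prdm16os (mean signal 55.9 each) and 1810064F22Rik (73.2) lay near the filter level. The differences also depend on how much a gene varies. The profile of Plin5 had an SD of 0.14 and that of Pdk4 0.57, so their differences cannot be compared as degrees of likeness.

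**Figure D5:**
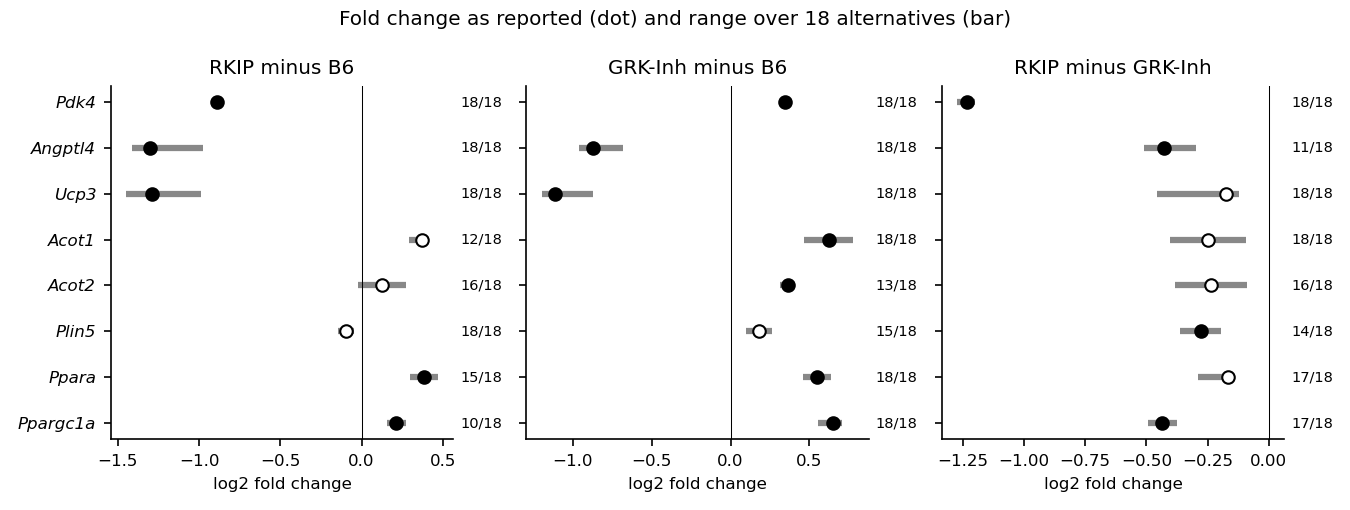
Log2 fold change of the 8 genes as reported (dots; filled where the adjusted p was under 0.05) with the range over 18 alternatives of processing (grey bars), in 3 panels for RKIP minus B6, GRK-Inh minus B6 and RKIP minus GRK-Inh. Numbers at the right count the alternatives that kept the direction and the side of the threshold: 18 of 18 for Pdk4 in all panels, and 10 of 18 for Ppargc1a in RKIP-transgenic hearts against control.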

How the data were processed

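Heart RNA was measured on 6 Affymetrix arrays with 45101 probe sets, 2 arrays in each of 3 groups. The deposited values are linear signal intensities per probe set that the authors computed with GCOS, per the submitters' processing notes; the 2% trimmed mean was 300.002 on every array. The 64 control probe sets were set aside, and 34945 probe sets had a single symbol in the platform annotation, 932 had several and 9160 none. Groups and replicate numbers came from the sample titles. The number of arrays limits the precision, and SEs of log2 fold changes had a median of 0.115.

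Signals were transformed as log2(signal + 50), where 50 is the offset. The probe set of highest mean signal stood for each of 18193 genes, and 11254 genes whose mean log2 value reached 6.65, the median of all non-control probe sets, were fitted with limma 3.58.1 in R 4.3.3, in one model of 3 group means over 6 arrays with 3 residual and 7.63 prior degrees of freedom, with a variance trend. P-values are two-sided and Benjamini-Hochberg adjusted over all genes tested; single probe sets come from one fit over 22519 probe sets. On simulated data for RKIP-transgenic against control with 11254 genes, 71.6% of changes of 0.5 and 100% of changes of 1 on the log2 scale were called. The simulated noise was normal, with a spread set by signal level alone. Real genes of one level differ in spread, which may make these shares too high for the real data. The simulation changed 67 genes by 0.5, 67 by 1 and 66 by 2, in 1 group, where 1220 genes were called in the real comparison. The number of changed genes also moves the adjusted threshold, so the shares may be off in either direction. The members, the 10 pathway and 11 marker lists, the tests and the named genes were chosen with earlier results of these data known. Named are the 8 genes and genes from a fixed set of relatives. For each pathway list and comparison a rule picked up to 3 called genes of largest change or, without a call, 2 of highest signal. Of marker lists it picked called genes of highest signal. Not every gene so picked is named, so those named are not always the largest changes. Other genes were named after their values were seen. Alternatives were other normalizations, offsets of 16 and 200, no filter or one at the 75th percentile, other probe set rules, other variances, arrays of the 2 groups only, a replicate block and each array left out. Figures used Python 3.11.15 and matplotlib 3.10.9.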

Additional observations from a re-analysis of the deposited data

Results flagged for a closer look

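The level differed between the 2 transgenic lines for 4 of the 8 genes, by the limma test of RKIP-transgenic against GRK-Inh-transgenic hearts itself. The difference on the log2 scale was -1.23 for Pdk4, which fell in the RKIP-transgenic line and rose in the GRK-Inh-transgenic line. It was -0.43 for Angptl4, which fell in both, -0.44 for Ppargc1a, which was higher in both, and -0.28 for Plin5, which passed against control in neither. All arrays of the first line lay below those of the second for these genes. The rise of Ppargc1a in RKIP-transgenic hearts was lost under 8 of 18 alternatives. The difference between the lines was lost under 7 for Angptl4, 4 for Plin5 and 1 for Ppargc1a.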

How the results depend on the processing

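Of 432 values (8 genes, 3 comparisons, 18 alternatives), 390 kept their direction and their side of the threshold, 28 lost a call, 13 gained one and 1 reversed: Acot2 in RKIP-transgenic against control hearts, -0.021 without RKIP array 2 and 0.27 without RKIP array 1. The mean over all probe sets of a gene, and leaving out arrays for genes of the lists, were chosen after seeing the data. A variance without trend lowered the counts most, to 293, 726 and 251 genes and to 3 and 1 of the 8 genes in RKIP-transgenic against control and between the lines. Without a filter 619 genes and 2 of the 8 were called between the lines, and all probe sets one by one gave 2324 calls in GRK-Inh-transgenic hearts, where more features were tested. Leaving out each array gave 624 to 1137, 904 to 1484 and 476 to 876 genes and 3 to 6, 6 to 7 and 2 to 4 of the 8. For counts the cause was not tested beyond that. With arrays shifted to one median, higher and lower calls went from 658 and 816 to 897 and 599 in GRK-Inh-transgenic hearts, and from 503 and 492 to 319 and 601 between the lines. Same-numbered arrays did not deviate together over all genes tested (correlations -0.035 to 0.026), which cannot exclude a pairing that acts on some genes. With a replicate block 1153, 1436 and 907 genes and 5, 7 and 4 of the 8 were called.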
